A study of Homo sapiens with 12 samples.

Results

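The chemokine genes are the autosomal protein-coding genes whose symbol is CCL or CXCL with a number, together with CX3CL1, XCL1 and XCL2. By this rule 43 of the 19111 autosomal protein-coding genes of GENCODE release 44 were chemokine genes, chosen by name and not by any measured value. Chromatin was immunoprecipitated with an antibody against trimethylated lysine 27 of histone H3 (H3K27me3) from human SH-SY5Y neuroblastoma cells, an established line with a noradrenergic, neuron-like character. The 3 genotypes were the parental cells that express Tau (WT) and the Tau-KO lines 231K and 232P, in which MAPT, the gene of Tau, was disrupted by CRISPR-Cas9, with 2 biological replicates each and no further treatment. Each knock-out genotype is 1 cell line, so an effect of the knock-out and a property of the line cannot be told apart. Peaks of sequenced DNA were called in each of the 6 ChIP samples on its own, and the 6 input samples were not analysed here.

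Chemokines are small secreted proteins that guide migrating cells along a gradient through G protein-coupled receptors. Many of them arose by gene duplication and lie side by side, the CC chemokines of inflammation mostly on chromosome 17 and the CXC chemokines mostly on chromosome 4. H3K27me3 is deposited by the polycomb repressive complex 2 (PRC2), often in broad domains over genes that are silent in a cell type, and several chemokines belong to the factors that senescent cells are known to secrete.

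The peak lists of replicates 1 and 2 held 285826 and 222191 peaks for WT, 271413 and 212347 for 231K, and 147118 and 199677 for 232P. They covered 213.592, 282.64, 196.647, 290.176, 70.3401 and 211.731 Mb in the same order. The number of reads is not in the lists. Depth was estimated as the genome-wide background over the width of the narrowest peak, which was taken as the fragment length. The WT lists had a background of 1.52 and 1.38 reads and narrowest peaks of 179 and 244 bp. The background was 1.44 and 1.40 reads and the narrowest peak 179 and 240 bp in the 231K lists. In the 232P lists the same values were 1.01 and 1.27 reads and 175 and 262 bp. Set against WT replicate 1, the estimated depth was 66.6% for the other WT sample, 94.8% and 68.7% for 231K. For 232P it was 68.1% and 56.9%. The median peak width was 441, 440 and 335 bp in replicate 1 of WT, 231K and 232P, and 682, 688 and 666 bp in their replicates 2. 232P replicate 1 therefore stood apart, with the fewest and narrowest peaks and the lowest background, and the main comparisons of coverage in 232P are given with and without it. Its labels were followed, although the peak names in both lists labelled 232P begin with 231P. A missing peak means that none passed the threshold at that depth, not that the mark was absent.

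The markers of the cell type can only be read as presence or absence of H3K27me3 here. The noradrenergic genes PHOX2A, HAND2, GATA2, GATA3, ISL1, TH and DBH had no peak within 1 kb of a transcription start site (TSS) in any sample. Among genes of other cell types, CD3E of T cells and KRT5 of epithelium carried a peak in all 6 samples, whereas PTPRC, CD14, PECAM1, CDH5 and EPCAM had none in any. MAPT itself had no peak in the 6 samples, so the mark does not check the knock-out.

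A gene was given a TSS mark when a peak reached within 1 kb of any of its annotated TSS, and a gene mark when a peak lay anywhere in the gene or within 1 kb of it. Of the 43 chemokine genes, 27 carried a TSS mark in each WT sample and in both, against 14.8% of all autosomal protein-coding genes. The number was 24 in each 231K sample, and 24 and 26 in 232P replicates 1 and 2, while between 13.4% and 16.5% of all genes had a TSS mark in a sample. In all 6 samples 23 chemokine genes had one, against 10.8% of all genes. Of the rest, CXCL6 was marked in 5 samples, CXCL8 in 4, CCL2 in 3 and CXCL12 in 2, and 16 genes were marked in none. A gene mark was found for 28 chemokine genes in both WT samples, against 18.9% of all genes, for 27 in each 231K sample and for 24 and 27 in 232P, and for 24 in all 6 samples, against 15.2% of all genes. No test was made of these shares, since neighbouring chemokine genes share domains of the mark.

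**Figure D1:**
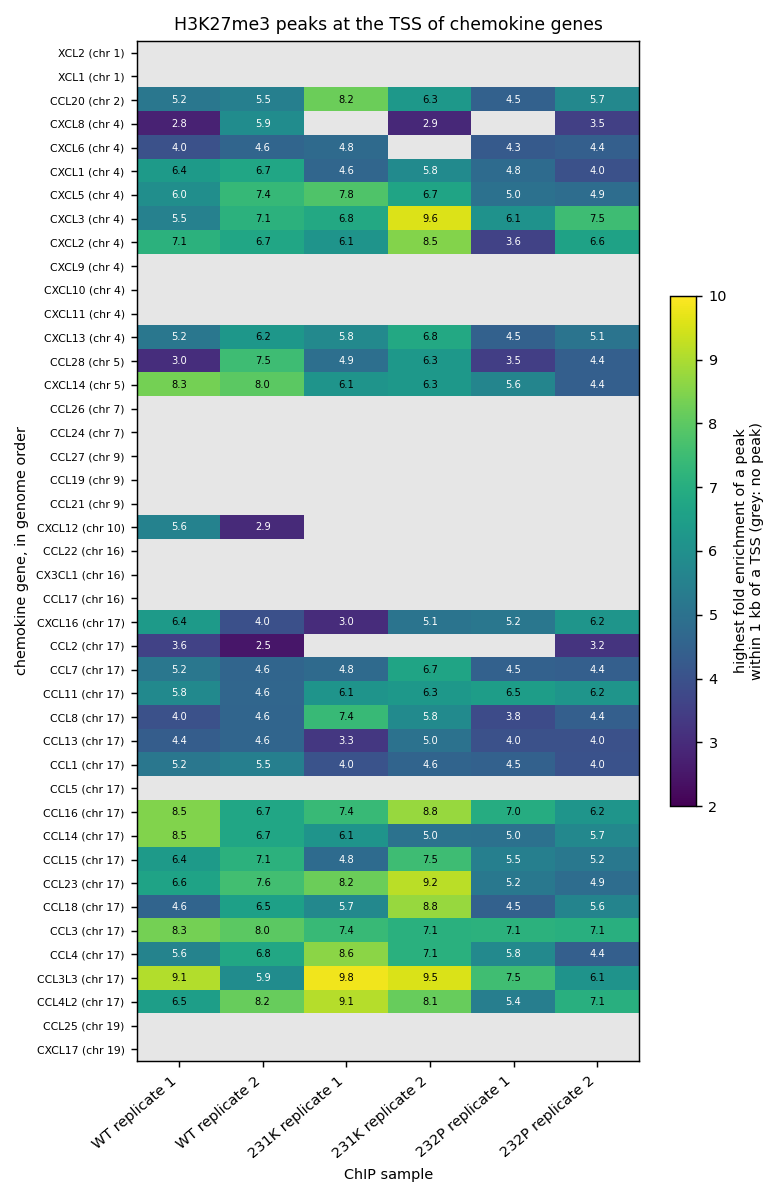
Highest fold enrichment of an H3K27me3 peak within 1 kb of a TSS for the 43 chemokine genes (rows, in genome order) in the 6 ChIP samples (columns), with grey for no peak. 23 genes are filled in every sample, 16 in none, and CXCL8, CXCL6, CXCL12 and CCL2 in some.

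Sequences of 4 stretches are shown for the genes on which the results turn. The first lies 650 to 878 bases upstream of the canonical TSS of CXCL12, at chr10:44385747-44385975 (hg38, minus strand), inside the peak that both WT samples had and no Tau-KO sample had. It belongs to the first intron of 1 longer CXCL12 transcript and overlaps none of that transcript's exons, and the capitals mark its 13 CpG dinucleotides. The others are the 250 bases before the TSS in the RefSeq promoter table (GRCh38.p14). CXCL1, at chr4:73869143-73869392 on the plus strand, was marked in all samples, CXCL10, at chr4:76023498-76023747 on the minus strand, was marked in none, and CCL20, at chr2:227813592-227813841 on the plus strand, was marked in all and is poor in CpG. Capitals mark matches to GGG, any NNN and TTCC in a row, a short form of the NF-kappaB motif, on either strand, and to TATAAA on the forward strand.
CXCL12: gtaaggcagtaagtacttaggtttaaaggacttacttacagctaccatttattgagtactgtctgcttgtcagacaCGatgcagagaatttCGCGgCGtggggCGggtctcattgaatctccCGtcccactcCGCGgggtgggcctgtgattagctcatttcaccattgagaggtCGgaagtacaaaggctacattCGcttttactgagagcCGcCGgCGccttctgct
CXCL1: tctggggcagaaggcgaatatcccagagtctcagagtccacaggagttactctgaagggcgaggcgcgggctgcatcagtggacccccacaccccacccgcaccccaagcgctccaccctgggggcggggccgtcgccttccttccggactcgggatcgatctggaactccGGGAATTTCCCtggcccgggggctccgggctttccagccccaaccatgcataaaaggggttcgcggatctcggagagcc
CXCL10: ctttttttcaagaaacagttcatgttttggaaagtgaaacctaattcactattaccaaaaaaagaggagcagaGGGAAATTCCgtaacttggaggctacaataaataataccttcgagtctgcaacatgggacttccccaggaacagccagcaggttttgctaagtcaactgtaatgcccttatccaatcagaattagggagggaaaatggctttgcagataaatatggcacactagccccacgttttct
CCL20: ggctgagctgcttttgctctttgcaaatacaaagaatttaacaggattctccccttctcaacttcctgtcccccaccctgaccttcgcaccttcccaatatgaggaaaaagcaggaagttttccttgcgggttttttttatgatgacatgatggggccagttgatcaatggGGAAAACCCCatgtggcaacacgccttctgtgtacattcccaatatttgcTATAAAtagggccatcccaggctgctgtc

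The promoter table held 31 of the 43 chemokine genes. Over 300 bases around the start, the ratio of observed to expected CpG was 0.204 in the median of these 31 and 0.787 over 14616 autosomal protein-coding genes. It was 0.190 in the 17 chemokine genes with a TSS mark in all samples and 0.220 in the 11 with none. The 17 include CCL28, whose mark lay at other annotated TSSs than the canonical one. Over all genes the corresponding medians were 0.375 and 0.817, so the unmarked chemokine promoters were poor in CpG, as the marked ones were, and unlike most unmarked genes. CXCL14, CXCL12, CXCL3, CXCL2 and CXCL1 stood out with 1.05, 0.879, 0.778, 0.706 and 0.674. This NF-kappaB form was found on either strand in 10 of the 31 promoters and in 6.99% of all, in 7 of the 17 marked and in 2 of the 11 unmarked ones. Matches lay in CXCL1, CXCL2, CXCL3, CXCL5, CXCL6, CXCL10, CXCL11, CCL1, CCL18 and CCL20. In CXCL1 and CXCL3 the letters GGGAATTTCC began at base -79, in CXCL2 at -78 and in CXCL5 at -91, and each overlapped a match on the other strand, shifted by 1 base. The unmarked CXCL10 and CXCL11 had GGGAAATTCC at -177 and -76. TATAAA on either strand was in 14 of the 31 promoters and in 9.46% of all. Such matches describe the letters and are not evidence of binding.

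**Figure D2:**
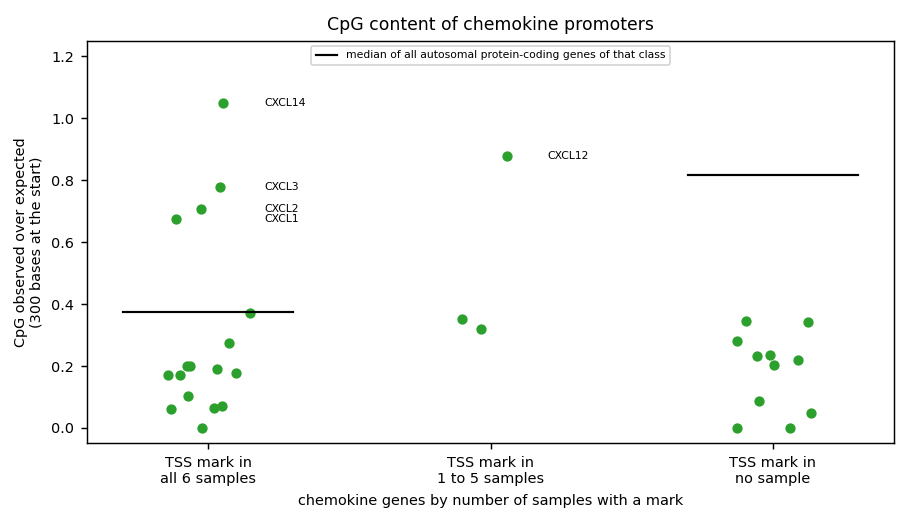
Ratio of observed to expected CpG in the 300 bases around the start of 31 chemokine genes (points), by the number of samples with a TSS mark. Lines give the medians over all autosomal protein-coding genes, 0.375 for those marked in all 6 samples and 0.817 for those marked in none; 26 of the 31 chemokine genes lie at or below 0.372.

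The ELR CXC chemokines CXCL1, CXCL2, CXCL3, CXCL5, CXCL6 and CXCL8 attract neutrophils through CXCR2, and CXCL6 and CXCL8 also use CXCR1. The highest fold enrichment of a peak at the TSS, which relates its summit height to the background around it, was taken for each gene. For CXCL1 it was 6.35 and 6.73 in WT, 4.64 and 5.84 in 231K, and 4.79 and 3.97 in 232P. For CXCL2 it was 7.15 and 6.73 in WT, 6.14 and 8.53 in 231K, and 3.57 and 6.62 in 232P. CXCL3 had 5.53 and 7.15 in WT, 6.84 and 9.59 in 231K, and 6.08 and 7.50 in 232P. At CXCL1 all 4 Tau-KO samples were below both WT samples, whereas the values of CXCL3 overlapped between all genotypes. How many of all genes are ordered in this way by fold was not counted. Such orders of fold, here and below, were not tested and only describe the values. CXCL5 had 5.96 and 7.35 in WT, 7.79 and 6.67 in 231K, and 4.97 and 4.86 in 232P. CXCL6 had 3.97 and 4.62 in WT, 4.76 and no peak in 231K, and 4.28 and 4.41 in 232P. CXCL8, interleukin-8, had 2.78 and 5.88 in WT, no peak and 2.92 in 231K, and no peak and 3.53 in 232P. CXCL8 thus had weak peaks in most samples that had any, and neither CXCL6 nor CXCL8 met the rule for a lost mark in either line. Their neighbours in the same cluster, the platelet chemokine genes PF4, PF4V1 and PPBP, which the naming rule leaves out, had a TSS mark in all 6 samples, with folds of up to 6.18, 5.84 and 7.15.

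CXCL9, CXCL10 and CXCL11, the interferon-induced ligands of CXCR3 that draw T cells, lie on the same chromosome 4 and had no TSS or gene mark in any sample. The peak nearest to CXCL9 was 124 kb away in WT replicate 1 and between 428 and 541 kb away in the other 5 samples. The region from CXCL9 to CXCL11 with 20 kb on each side held no peak at all, and neither did its other genes SDAD1 and ART3. The 1902.08 kb between CXCL2 and CXCL9 were covered for 19.0% and 26.3% in WT, 17.6% and 26.6% in 231K, and 3.87% and 20.5% in 232P.

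The monocyte chemoattractant proteins CCL2, CCL7, CCL8 and CCL13, ligands of CCR2 and related receptors, and the eotaxin CCL11, a CCR3 ligand that attracts eosinophils, share a cluster on chromosome 17 with CCL1, the ligand of CCR8. The fold at the TSS of CCL7 was 5.16 and 4.62 in WT, 4.76 and 6.67 in 231K, and 4.47 and 4.41 in 232P. For CCL8 it was 3.97 and 4.62 in WT, 7.38 and 5.84 in 231K, and 3.84 and 4.41 in 232P. For CCL13 it was 4.37 and 4.62 in WT, 3.29 and 5.00 in 231K, and 3.98 and 3.97 in 232P. Both 231K samples were above both WT samples at CCL8, and the 231K and WT values of CCL7 and CCL13 overlapped. CCL11 had 5.79 and 4.63 in WT, 6.15 and 6.25 in 231K, and 6.46 and 6.18 in 232P. CCL1 had 5.16 and 5.46 in WT, 4.04 and 4.57 in 231K, and 4.47 and 4.01 in 232P. At CCL11 all 4 Tau-KO samples were above both WT samples, and at CCL1 all 4 were below. The part of the CCL11 gene covered by peaks did not follow its fold. It was 74.1% and 74.3% in WT, 71.2% and 80.6% in 231K, and 42.3% and 41.0% in 232P. The other eotaxin genes, CCL24 and CCL26 on chromosome 7, had no TSS mark, and CCL24 had a peak of fold 2.99 inside the gene in 232P replicate 2 alone. Background on chromosome 7 was raised in every sample. Its median over the peaks there was 2.28 and 1.99 reads in WT, against 1.55 and 1.38 over all peaks. Whether this had a part in the missing marks was not tested.

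The macrophage inflammatory proteins CCL3 and CCL4, which attract monocytes and T cells, carried a TSS mark in every sample, as did their copies CCL3L3 and CCL4L2. CCL3 had folds of 8.34 and 7.99 in WT, 7.38 and 7.09 in 231K, and 7.13 and 7.06 in 232P. All its Tau-KO values were thus below both WT values by a small margin. CCL4 had 5.57 and 6.79 in WT, 8.61 and 7.09 in 231K, and 5.75 and 4.41 in 232P. CCL3L3 had 9.08 and 5.90 in WT, 9.84 and 9.55 in 231K, and 7.54 and 6.09 in 232P. CCL4L2 had 6.48 and 8.15 in WT, 9.11 and 8.13 in 231K, and 5.41 and 7.06 in 232P. The 9.84 of CCL3L3 in 231K replicate 1 was the highest TSS fold of a chemokine gene in that sample. These 4 genes are near-identical in pairs, and how reads that fit both copies were placed is not given in the sources used here, so the values of a pair are uncertain.

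The CC chemokines between CCL5 and CCL3 include CCL14, CCL15, CCL16 and CCL23, which act on CCR1, and CCL18, made by macrophages and dendritic cells. CCL16 had 8.48 and 6.73 in WT, 7.38 and 8.75 in 231K, and 6.96 and 6.18 in 232P. CCL14 had 8.48 and 6.73 in WT, 6.15 and 5.00 in 231K, and 4.97 and 5.74 in 232P. In both WT samples 1 peak reached the TSS windows of both genes, and at CCL14 all 4 Tau-KO values were below both WT values. CCL15 had 6.35 and 7.15 in WT, 4.80 and 7.50 in 231K, and 5.47 and 5.22 in 232P. CCL23 had 6.63 and 7.57 in WT, 8.20 and 9.17 in 231K, and 5.21 and 4.86 in 232P. CCL18 had 4.57 and 6.54 in WT, 5.74 and 8.75 in 231K, and 4.47 and 5.62 in 232P. CCL23 was above both WT samples in 231K and below both in 232P, while at CCL18 the WT range overlapped that of each line and both 231K values lay above both 232P values. CCL5, the T cell attractant RANTES, heads the same cluster but had no peak nearer than 24.0 to 31.0 kb in 5 samples and 71.4 kb in 232P replicate 1.

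Of the chemokines that lie alone, CCL20 attracts dendritic cells and T cells through CCR6, CXCL13 guides B cells to follicles through CXCR5, and CCL28 and CXCL14 are made by epithelia. The membrane-bound CXCL16 is the ligand of CXCR6. All 5 had a TSS mark in every sample, but those of CCL28 in all samples and of CXCL16 in 5 lay only at other annotated TSSs, as the nearest peak was 5.22 to 12.3 kb and 1.12 to 1.55 kb from the canonical one. CCL20 had folds of 5.16 and 5.46 in WT, 8.20 and 6.25 in 231K, and 4.47 and 5.74 in 232P. CXCL13 had 5.16 and 6.24 in WT, 5.77 and 6.81 in 231K, and 4.47 and 5.08 in 232P. CCL28 had 3.04 and 7.53 in WT, 4.92 and 6.25 in 231K, and 3.48 and 4.41 in 232P. CCL20 was above both WT samples in 231K, and the WT samples of CCL28 differed more from each other than from any Tau-KO sample. CXCL14 had 8.34 and 7.99 in WT, 6.15 and 6.25 in 231K, and 5.65 and 4.41 in 232P. CXCL16 had 6.35 and 3.97 in WT, 3.02 and 5.08 in 231K, and 5.16 and 6.18 in 232P. At CXCL14 all Tau-KO values were below both WT values, and at CXCL16 they were spread around them. Peaks covered between 8.54% and 47.9% of the CXCL13 gene with 50 kb on each side, and between 8.49% and 44.2% at CCL28, so these genes also lay in broader marked surroundings.

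The 16 chemokine genes without a TSS mark in any sample were XCL1, XCL2, CXCL9, CXCL10, CXCL11, CXCL17, CX3CL1, CCL5, CCL17, CCL19, CCL21, CCL22, CCL24, CCL25, CCL26 and CCL27. Among them are CCL19 and CCL21, the lymph node chemokines that bind CCR7, CCL17 and CCL22, the ligands of CCR4, and CX3CL1, fractalkine, which neurons are known to make. CX3CL1 was 491 kb or more from the nearest peak in 5 samples and 22.4 kb in 231K replicate 2, and XCL1, lymphotactin, was 849.6 kb or more from one in each sample. CCL25, the thymus chemokine that binds CCR9, had small peaks in the WT and 231K samples and none in 232P. They lay near the end of the gene or just beyond it, and 231K replicate 1 had a further peak inside the gene, 7.26 kb past the TSS.

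Over the 23 chemokine genes with a TSS mark in all 6 samples, the median fold at the TSS was 5.96 and 6.73 in WT, 6.15 and 6.67 in 231K, and 4.97 and 5.22 in 232P. Over the 2063 genes with a TSS mark in all samples it was 5.83 and 6.73 in WT, 5.74 and 7.31 in 231K, and 4.97 and 5.62 in 232P. The folds of the marked chemokine genes were thus close to those of all marked genes in each sample. Their genes were covered over a larger part, with medians of 69.0% and 77.4% in WT, 62.8% and 81.0% in 231K, and 34.7% and 58.0% in 232P. The medians over the 2063 genes were 49.7% and 61.9%, 46.0% and 64.3%, and 18.8% and 45.9%.

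Whether Tau-KO cells had lost the mark at chemokine genes was asked first by presence. A mark that each WT sample carried and that was missing from each sample of a line was called lost, and a gained mark was the reverse. Of the 27 chemokine genes whose TSS was marked throughout WT, 2 had lost the mark in 231K, CXCL12 and CCL2, against 2.13% of all genes that could. In 232P it was 1 of 27, CXCL12, against 5.42%. None of the 16 chemokine genes unmarked in both WT samples gained a TSS mark in 231K, against 0.159% of all genes, or in 232P, against 0.0765%. For gene marks, 0 of 28 were lost in 231K, against 1.82%, and 2 of 28, CXCL12 and CCL25, in 232P, against 4.7%. None of 15 was gained in 231K, against 0.243%, or in 232P, against 0.101%. With 2 samples against 2, the smallest two-sided exact p is 0.333, so a rank or presence test of a single gene cannot pass 0.05.

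CXCL12, the ligand of CXCR4 and ACKR3 that directs migrating neurons and blood progenitors, was the only chemokine gene with a TSS mark lost in both lines, which share their WT samples. The WT replicate 1 peak lay at chr10:44385747-44386039 with a fold of 5.56, a -log10 q-value of 6.04 and 13 reads at the summit over a background of 1.52. The WT replicate 2 peak lay at chr10:44385736-44386032 with a fold of 2.94, a -log10 q-value of 1.81 and 6 reads over 1.38. They shared 286 bp, which hold the CXCL12 stretch given with the sequences. Both are small, and the second is one of the weakest peaks at a chemokine TSS. WT replicate 1 had 2 more peaks 1.06 and 1.68 kb downstream of the canonical TSS, at folds of 3.18 and 4.37. In 231K replicate 1 a single peak of fold 2.87 lay 2.33 kb downstream, and the other 3 Tau-KO samples had none in the gene. Peaks covered 5.76% and 1.62% of the gene with 1 kb on each side in WT, 1.10% and 0% in 231K, and 0% in both 232P samples. With 50 kb on each side of the gene, 27.7% and 27.4% were covered in WT, 22.1% and 28.1% in 231K, and 10.8% and 21.2% in 232P, so peaks lay around the gene in every sample. The call of a lost mark at CXCL12 ended in both lines when each list was shortened to the same number of strongest peaks and when peaks below a -log10 q-value of 5 were dropped, and in 231K also with a window of 2.5 kb.

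CCL2, the main attractant of monocytes, had a weak TSS mark in both WT samples, but not in the same place. The WT replicate 1 peak, at chr17:34255565-34255783, had a fold of 3.57 and the WT replicate 2 peak, at chr17:34256107-34256700, a fold of 2.48 and a -log10 q-value of 1.29, and they did not overlap. 232P replicate 2 had a TSS peak of fold 3.21 at chr17:34255582-34255882, over that of WT replicate 1. In 231K the peaks nearest to the TSS began at 34257007 in replicate 1 and at 34258182 in replicate 2, further into the gene or past its end. The stretch between CCL2 and CCL7 was covered for 53.7% and 73.4% in WT, 41.7% and 75.0% in 231K, and 6.56% and 66.3% in 232P, so the domain behind the gene was present in both lines and thin in 232P replicate 1. The call at CCL2 ended when peaks below a -log10 q-value of 1.3 or of 5 were dropped, with the same number of strongest peaks in each list, with a window of 2.5 kb, and when 200 bp of the window had to be covered, where CXCL8 was called in its place.

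**Figure D3:**
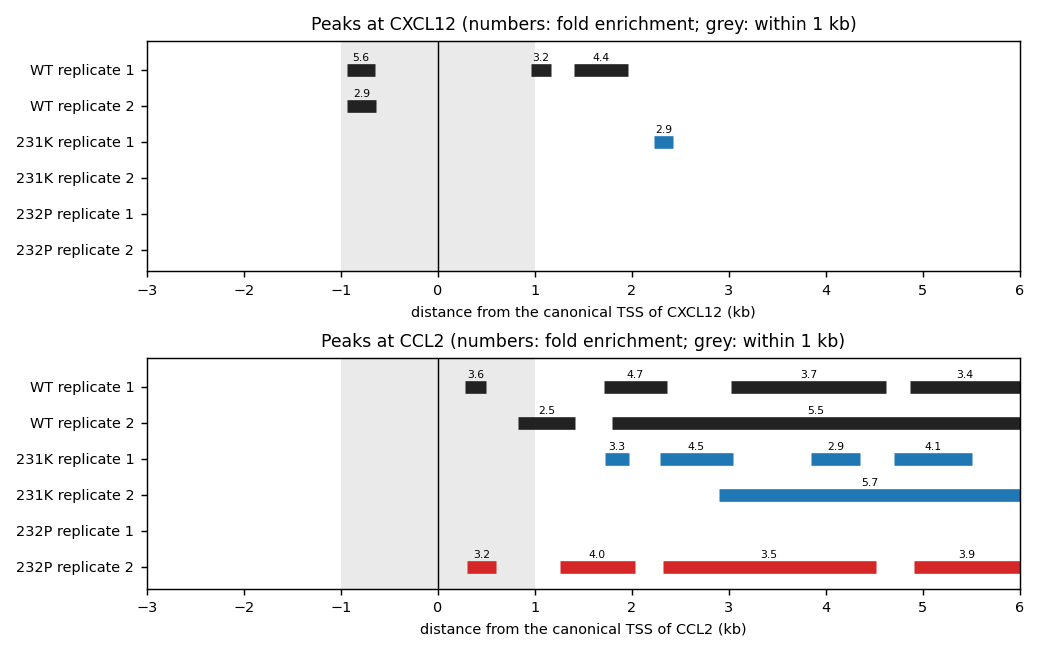
H3K27me3 peaks (bars, with their fold enrichment) around the canonical TSS of CXCL12 and CCL2 in the 6 ChIP samples, by distance from the TSS in kb in the direction of transcription, with 1 kb on each side in grey. At CXCL12 the WT samples alone have a peak within 1 kb upstream of the TSS, with folds of 5.56 and 2.94, and at CCL2 the peaks near the TSS differ in place between the WT samples.

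The amount of the mark was compared as the percent of each gene, with 1 kb on each side, that peaks covered, by limma over the 4182 autosomal protein-coding genes with a gene mark in at least 2 samples. Of the chemokine genes 28 passed this filter. No chemokine gene had a Benjamini-Hochberg adjusted p under 0.05 in either line against WT or between the lines, against 0% of all genes. At an unadjusted p under 0.05 there were 116 genes with 1 chemokine gene among them in 231K, 433 genes with 4 in 232P, and 284 genes with 3 between the lines. These counts moved with single samples. In 231K there were 178 genes with 0 chemokine genes without 231K replicate 1. In 232P there were 274 genes with 4 without 232P replicate 1, 963 with 10 without 232P replicate 2, 268 with 3 without WT replicate 1 and 153 with 2 without WT replicate 2. The median difference to WT over the chemokine genes was -0.993 percentage points in 231K, with 13 higher, 14 lower and 1, CCL4L2, equal within 1e-06 points, and -0.175 over all genes. The sign of the 231K median rested on single samples, as it was 7.08 points without 231K replicate 1, 1.26 without WT replicate 2, -1.90 without WT replicate 1 and -3.79 without 231K replicate 2, beside 2.24, 0.712, -2.33 and -4.51 over all genes. In 232P it was -15.0 points, with 27 of 28 lower, and -9.70 over all genes. Without 232P replicate 1 the medians in 232P were -3.99 and -2.67 points, and without 232P replicate 2 they were -28.5 and -14.6.

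CCL14 had the lowest unadjusted p of the chemokine genes in both lines. Its coverage was 100% and 98.2% in WT, 72.5% and 78.0% in 231K, and 59.5% and 62.8% in 232P. The limma difference was -23.8 ± 7.80 points (SE) in 231K, with an adjusted p of 1, and -37.9 ± 7.80 in 232P, with an adjusted p of 0.452. CCL11 was covered for 74.1% and 74.3% in WT, 71.2% and 80.6% in 231K, and 42.3% and 41.0% in 232P. Both genes lay below WT in each 232P sample, and at CCL11 the 231K samples lay on either side of WT. CCL4 was covered for 79.2% and 91.9% in WT, 94.2% and 100% in 231K, and 44.2% and 58.0% in 232P. It lay above both WT samples in 231K and below both in 232P, with limma differences of 11.6 ± 9.69 and -34.4 ± 9.69 points and adjusted p of 1 and 0.452. Without 232P replicate 1 the differences in 232P were -36.3 points for CCL14, -33.2 for CCL11 and -27.5 for CCL4. The CCL4 difference in 231K was 5.19 points without WT replicate 1 and 17.9 without WT replicate 2. CCL20 was covered for 56.3% and 71.8% in WT, 59.8% and 87.9% in 231K, and 8.69% and 55.8% in 232P. CCL2 was covered for 21.9% and 43.8% in WT, 22.4% and 0.686% in 231K, and 0% and 42.8% in 232P, so its samples within a line differed as much as the genotypes did.

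By the order of the samples alone, 14 of 28 chemokine genes were covered less in both 232P samples than in both WT samples, against 43.3% of all genes fitted, and none was covered more, against 0.909%. In 231K, 2 were covered less, CXCL12 and CCL14, against 13.3%, and 3 were covered more, CCL4, CCL8 and CCL13, against 5.4%. The 14 covered less in 232P were CCL3, CCL3L3, CCL4, CCL7, CCL11, CCL14, CCL18, CCL20, CCL23, CCL25, CXCL1, CXCL12, CXCL14 and CXCL16. CCL8 was covered for 29.0% and 63.7% in WT, 69.5% and 80.9% in 231K, and 13.9% and 77.2% in 232P, and CCL13 for 42.0% and 14.1%, 53.0% and 60.7%, and 21.6% and 24.4%. Within the replicate numbers, 22 of 28 chemokine genes were covered less in 232P than in WT in both pairs, against 69.9% of all genes fitted, and none was covered more in both, against 1.87%. In 231K, 7 were covered less in both pairs, against 27.5%, and 11 were covered more, against 18.1%.

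Along the chromosomes the chemokine genes formed 4 clusters, taken here as chains of at least 3 members with gaps of at most 500 kb, with 20 kb on each side. The cluster from CXCL8 to CXCL2, at chr4:73720519-74119196, holds 6 of them. Peaks covered 33.6% and 47.3% of it in WT, 32.6% and 47.0% in 231K, and 7.96% and 38.9% in 232P. The cluster from CCL2 to CCL1, at chr17:34235274-34383233, also holds 6 and was covered for 38.1% and 48.3% in WT, 31.1% and 53.8% in 231K, and 9.87% and 36.2% in 232P. The cluster from CCL5 to CCL4L2, at chr17:35851491-36232878, holds 10 and was covered for 52.3% and 57.6% in WT, 49.8% and 59.8% in 231K, and 25.9% and 48.3% in 232P. Of all autosomes, 6.75% and 8.92% were covered in WT, 6.26% and 9.17% in 231K, and 2.32% and 6.82% in 232P. The 3 clusters were thus covered several times more densely than the autosomes in every sample, and the cluster from CXCL9 to CXCL11, at chr4:75981275-76061415, not at all.

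**Figure D4:**
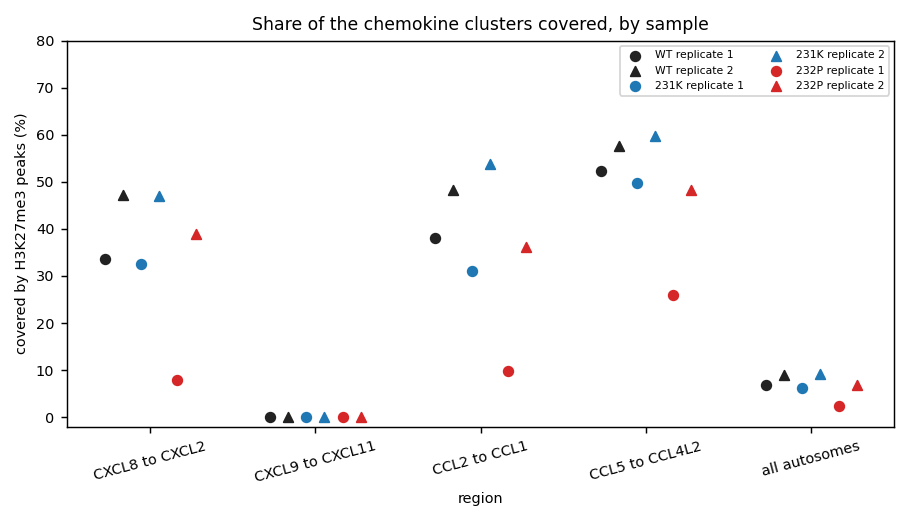
Percent of each chemokine cluster, and of all autosomes, covered by H3K27me3 peaks in the 6 ChIP samples (circles for replicate 1, triangles for replicate 2, colours for genotypes). In 3 clusters 232P replicate 1 lies lowest, at 7.96%, 9.87% and 25.9%, and the region from CXCL9 to CXCL11 is at 0 in all samples.

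Relative to the WT mean, the coverage in 231K was 0.985 times for the cluster from CXCL8 to CXCL2, 0.983 for that from CCL2 to CCL1 and 0.998 for that from CCL5 to CCL4L2, beside 0.985 for all autosomes. In 232P the ratios were 0.580, 0.534 and 0.675, beside 0.584 for all autosomes. Without 232P replicate 1 they were 0.963, 0.839 and 0.879, beside 0.871 for all autosomes, and without 232P replicate 2 they were 0.197, 0.229 and 0.471, beside 0.296. In 231K the ratios of the clusters were near that of all autosomes. In 232P the ratio of the CCL5 cluster lay above that of the autosomes, mainly in replicate 1, a difference that was not tested, and the low coverage in 232P rested largely on that sample. When peaks below a -log10 q-value of 5 were dropped, the ratios in 232P were 0.334, 0.220 and 0.421, beside 0.402. The median fold of the peaks in the CCL5 cluster was 4.37 and 4.62 in WT, 4.51 and 5.03 in 231K, and 4.34 and 4.41 in 232P, over the peaks that passed the threshold in each list. The widest peak of 232P replicate 1 there was 3333 bp, against 7722 to 24348 bp in the other 5 samples. Whether depth or fragment length had a part in these widths was not tested.

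Within the CCL5 cluster the mark had a border. TAF15, HEATR9, CCL5 and RDM1 at its left end had no gene mark in any sample. The 129.129 kb from CCL16 to CCL4 were covered for 78.1% and 85.8% in WT, 70.9% and 88.4% in 231K, and 38.1% and 69.2% in 232P. The 18.01 kb from CCL3L3 to CCL4L2 were covered for 85.7% and 93.5% in WT, 85.5% and 94.5% in 231K, and 70.0% and 89.3% in 232P. This last stretch was the one that kept the most coverage in 232P replicate 1 among the stretches measured. The gap between them was covered for 60.5% and 59.1% in WT, 57.6% and 65.6% in 231K, and 25.4% and 51.9% in 232P, and TBC1D3B, the gene in it, had a TSS mark in 2 samples. In the CXCL8 cluster the coverage came in blocks, 59.4% and 58.9% in WT from CXCL6 to CXCL1 but 19.8% and 25.7% between CXCL8 and CXCL6, and in 232P these were 17.8% and 56.5%, and 2.62% and 22.3%. In the CCL2 cluster the mark stopped short of both ends of the region in most samples.

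**Figure D5:**
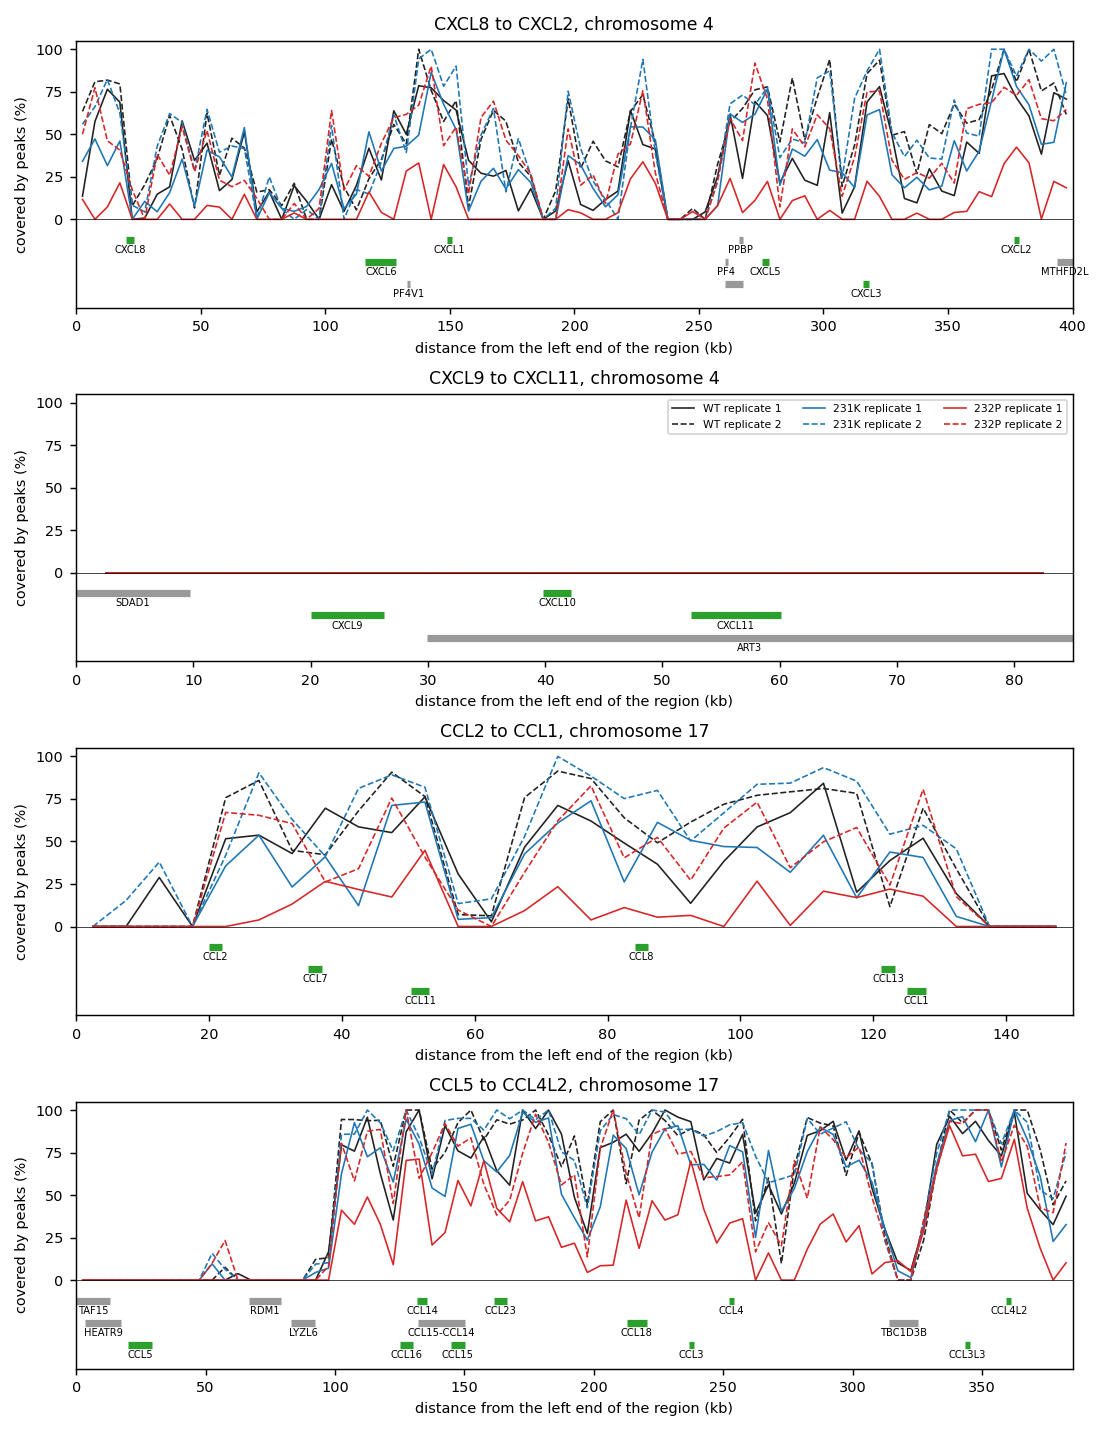
Percent covered by H3K27me3 peaks in 5 kb bins along the 4 chemokine clusters, by distance from the left end in kb, in the 6 ChIP samples (solid for replicate 1, dashed for replicate 2). Green bars are chemokine genes and grey bars other protein-coding genes; coverage is absent around CCL5 and rises before CCL16, and the region from CXCL9 to CXCL11 is at 0 throughout.

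Receptors of the family were read in the same way. Among those with a TSS mark in all 6 samples were CCR1, CCR2 and CCR3, receptors of the CC chemokines of inflammation on leukocytes, CXCR3, the receptor of CXCL9, CXCL10 and CXCL11, and the scavenging receptors ACKR1 and ACKR3. CCR2 had folds of 7.54 and 6.41 in WT, 6.50 and 7.50 in 231K, and 5.47 and 6.42 in 232P. A TSS mark was found in some samples for 3 receptors, CXCR4, ACKR2 and CCRL2, and in none for 13. ACKR3, which binds CXCL12, had 4.42 and 6.73 in WT, 8.10 and 8.34 in 231K, and 6.96 and 6.62 in 232P. CXCR4, the signalling receptor of CXCL12, had a weak TSS mark in WT replicate 2, at a fold of 2.41, and in 231K replicate 2, at 3.03, and none in the other 4 samples. Ligand and receptor thus did not always share the mark, as CXCR3 was marked in every sample and its 3 ligands in none.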

How the data were processed

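H3K27me3 ChIP-seq lists of 6 samples were used, named by genotype and replicate from the labels (A as 1, B as 2). The authors used trimmomatic for trimming, BWA for mapping to hg38 and MACS (version 2) for peaks of each sample. The threshold, control, fragment length and tool versions are not given in the sources used here. The methods name broad peaks, while the deposited lists have the 10 narrowPeak columns. The deposited values are a score, a fold enrichment (a ratio of summit reads to local background, 1 added to each), and the p-value and q-value as -log10. No column was left out, and every peak ended within its hg38 chromosome.

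Summit reads and background were recovered from fold and p-value with the Poisson distribution for 100% of peaks, within 0.001 of the -log10 p-value. Relative depth was the lowest background divided by the narrowest peak width. Since no read totals are in the lists, no intervals for counting error can be given. Genes and TSS came from GENCODE release 44. The readthrough gene CCL15-CCL14 did not meet the rule. An overlap of at least 1 bp counted. Percent covered, which needs no count, was tested with limma 3.58.1 (R 4.3.3; genotype only, trended eBayes, Benjamini-Hochberg over 4182 genes). Other steps used Python 3.11.15 and pandas 2.3.3, and the limma fit and the recovery of heights were tested on simulated data. Samples with the same replicate number deviated together, with correlations of 0.458, 0.542 and 0.506 over these genes for WT with 231K, WT with 232P and 231K with 232P, so a replicate block was an alternative. P-values measure the spread between 2 samples a genotype.

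Described in full were chemokine genes with a TSS mark in at least 4 samples, or lost or gained in a line. The members, lists and naming rule were chosen with earlier results of these data known. For coverage, CCL14, CCL11, CCL4, CCL20, CCL8 and CCL13 were picked after their values were seen. Results for some genes of the lists are not reported here. The alternatives were q-value thresholds, equal numbers of peaks, other windows and overlaps, filters, leaving out each replicate and, added after seeing the data, the order within replicate numbers.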

Additional observations from a re-analysis of the deposited data

Results flagged for a closer look

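The covered percent of CCL4 moved in opposite directions in the Tau-KO lines, above both WT samples in each 231K sample and below both in each 232P sample. The means of the lines differed by 46.0 percentage points (97.1% in 231K and 51.1% in 232P, n = 2 each). The limma test of this difference over 4182 genes gave an unadjusted p of 0.00478 and a Benjamini-Hochberg adjusted p of 0.619, so it did not pass. The near-identical copy CCL4L2 was at 100% in 5 samples and at 80.7% in 232P replicate 1. CCL4 was covered for 44.2% in that sample, the one with the narrowest peaks, and for 58.0% in 232P replicate 2. The part of peak width and of read placement between the copies was not tested.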

How the results depend on the processing

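Of 360 alternative values, 4 reversed and 27 counts or shares moved. The other 329 kept their direction and their side of the threshold, or stayed within the limits set for counts and shares, though some differences changed in size, as that of CCL4 in 232P to -69.4 points at a -log10 q-value of at least 5, and a count can hold other genes, as the 2 TSS marks lost in 231K did with 200 bp covered (CXCL8, CXCL12). At a -log10 q-value of at least 5, TSS marks fell to 7 and 12 and gene marks to 8 and 16 in 232P replicates 1 and 2, TSS marks lost were 1 in 231K (CCL1) and 5 in 232P (CXCL1, CXCL5, CXCL13, CCL1, CCL23), gene marks lost were 1 in 231K (CCL1) and 3 in 232P (CXCL5, CCL1, CCL23), where those of CXCL12 and CCL25 no longer were, and 1 TSS mark (CCL8) and 2 gene marks (CXCL6, CCL8) were gained in 231K. At a -log10 q-value of at least 1.3, 1 TSS mark was lost in 231K (CXCL12), and CCL2 no longer was. With all lists shortened to the same number of strongest peaks, 0 TSS marks were lost in either line and 1 gene mark in 232P (CCL25). With a window of 2.5 kb, 0 TSS marks were lost in 231K, and with the annotated gene start only, 2 in 232P (CXCL13, CXCL12). Leaving out each replicate gave 2 to 3 TSS marks lost in 231K and 1 to 3 in 232P, 0 to 1 gene marks lost in 231K and 2 to 4 in 232P, and 0 to 1 gained in 232P, with the highest 232P losses without 232P replicate 2. The covered share of the CCL2, CCL5 and CXCL8 clusters relative to WT in 232P was 0.220, 0.421 and 0.334 at a -log10 q-value of at least 5, and 0.402 for all autosomes. Leaving out each replicate gave 0.229 to 0.839, 0.471 to 0.879 and 0.197 to 0.963.

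The CCL11 difference in 231K was -11.5 points at a -log10 q-value of at least 5 and ranged from -3.04 to 6.32 over the samples left out. That of CCL2 in 232P ranged from -32.8 to 9.99, and that of CCL11 in 232P was 3.80 points over TSS windows. The median over chemokine genes in 231K was 0.825 points over TSS windows. The causes were not tested. The replicate block left 0 chemokine genes and 0 of all genes called in both lines, with 194 and 1183 genes and 3 and 11 chemokine genes at an unadjusted p under 0.05 in 231K and 232P, and changed no other call. limma could not be fitted on all genes, most of which are at 0 in every sample; a gene mark in at least 1 sample, added after seeing the data as were the clusters without each replicate, gave 4775 genes and again 0 calls.

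The limits are depth and the peak threshold. The lost marks of CXCL12, CCL2 and CCL25 rest on few peaks in 2 WT samples, with a -log10 q-value below 5 in at least 1 of them, a fold enrichment is relative to each library's background, the lists are not normalized to each other, and CCL3, CCL4 and their copies share sequence.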
